A study of Mus musculus with 14 samples.

Results

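The Nkx2 genes encode homeodomain transcription factors of the NK2 class, and 7 of them were followed here in mouse embryo fibroblasts, namely Nkx2-1, Nkx2-2, Nkx2-3, Nkx2-4, Nkx2-5, Nkx2-6 and Nkx2-9. They were chosen by name from 21938 annotated protein-coding genes, with the earlier result in view that the promoters of Nkx genes overlapped wide sites of H3K27me3. Within 50 kb of these genes lay 179 of the 153983 sites in the deposited list of the first of the study's H3K27me3 experiments. The choice therefore rests on the same sites that are described, and what follows is a description with no test.

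Each NK2 factor acts in a small number of organs during development. Nkx2-1 is needed in the thyroid, the lung and the ventral forebrain, Nkx2-2 and Nkx2-9 act in the ventral neural tube, and Nkx2-2 also in the endocrine pancreas. Nkx2-5 is a core factor of the heart, Nkx2-6 is expressed in the pharyngeal pouches and the developing heart, and Nkx2-3 acts in the mesenchyme of the gut and in the spleen. Tri-methylation of histone H3 at lysine 27 (H3K27me3) is set by Polycomb repressive complex 2 and is found over developmental genes that are silent in a given cell type.

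ChIP-seq, the sequencing of DNA bound to chromatin that is pulled down with an antibody, was performed on H3K27me3 in 12 libraries of immortalised mouse embryo fibroblasts (iMEF). They form 6 groups of 2, that is cells without dTAG treatment and cells treated with dTAG for 30 min, 2 h, 4 h, 8 h or 16 h, and 2 input libraries came from untreated cells and from cells treated for 16 h. In all groups, controls included, exon 4 of both floxed alleles of the endogenous Ash2l was deleted through Cre-ER, and a lentiviral FKBP12-F36V fusion of human ASH2L, FKBP-HA2-ASH2L, took its place. The PROTAC dTAG-13 links the FKBP tag to Cereblon, part of a ubiquitin ligase, and the fusion protein is then degraded. Most work of the study used 1 clone of these cells, NG3, so that what is particular to a clone and what is general cannot be told apart.

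The deposited list holds the position of each site, brought together over all samples, but no value for any library. There were thus no replicates to compare, no level of the mark and no difference between control and treated cells, and the depth behind a site is unknown. A site present in a share of the cells cannot be told apart from one present in all of them, and a base outside the sites is not shown to be free of the mark. Positions refer to the mouse build GRCm38 and are counted from 1. A start site is the first base of an annotated transcript, and the 5′ end of a gene is its outermost start site.

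The sequence directly before the 5′ end is shown for 4 members, so that CpG-poor and CpG-rich promoters of the family can be compared. These are the members whose RefSeq start site lay within 100 bp of the 5′ end used here, and each stretch of 150 bases lay wholly inside an H3K27me3 site. The stretches come from the RefSeq promoter table for GRCm38.p6 and are written 5′ to 3′ on the strand of the gene, with CpG dinucleotides, the pairs that can carry DNA methylation, in capitals. The positions are chr12:56536909-56537058 on the minus strand for Nkx2-1, chr12:56613285-56613434 on the minus strand for Nkx2-9, chr2:147085446-147085595 on the minus strand for Nkx2-4 and chr19:43612175-43612324 on the plus strand for Nkx2-3.
Nkx2-1: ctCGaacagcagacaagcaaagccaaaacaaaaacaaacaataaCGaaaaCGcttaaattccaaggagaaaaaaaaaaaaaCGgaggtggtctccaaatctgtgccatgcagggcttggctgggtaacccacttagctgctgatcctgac
Nkx2-9: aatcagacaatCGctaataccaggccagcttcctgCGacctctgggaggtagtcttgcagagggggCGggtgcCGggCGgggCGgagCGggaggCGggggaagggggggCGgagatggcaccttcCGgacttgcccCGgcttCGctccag
Nkx2-4: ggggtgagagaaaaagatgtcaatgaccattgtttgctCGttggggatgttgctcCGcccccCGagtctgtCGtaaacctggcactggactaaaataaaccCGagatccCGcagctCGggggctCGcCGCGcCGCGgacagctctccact
Nkx2-3: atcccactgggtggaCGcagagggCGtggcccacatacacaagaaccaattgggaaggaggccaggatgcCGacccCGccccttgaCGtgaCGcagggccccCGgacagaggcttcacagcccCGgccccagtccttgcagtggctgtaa
The stretch of Nkx2-1 holds 4 CpG dinucleotides and that of Nkx2-3 holds 8. The stretches of Nkx2-9 and Nkx2-4 hold 12 each.

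All 7 members had a single site over their 5′ end, and this site took in every annotated start site of the gene, 12 of 12 in all. In the same list, 31.5% of protein-coding genes had a site within 1 kb of a start site. The site over the start site was at least 2 kb wide at 7 of 7 members, against 16.1% of all protein-coding genes, which is the count the choice of members fixed. It was at least 10 kb wide at 5 of 7 members, against 3.82% of all protein-coding genes. The windows of 1 kb either side of the start sites lay in sites over their whole length at every member. The gene body, from the first to the last annotated base, lay wholly in sites at 5 members, against 2.19% of all protein-coding genes, and the body was covered by 1 site at each of the 7 members. The widths of the sites over the start sites were between 3721 and 21179 bp with a median of 13078 bp, whereas the median width of all sites in the list was 455 bp.

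**Figure D1:**
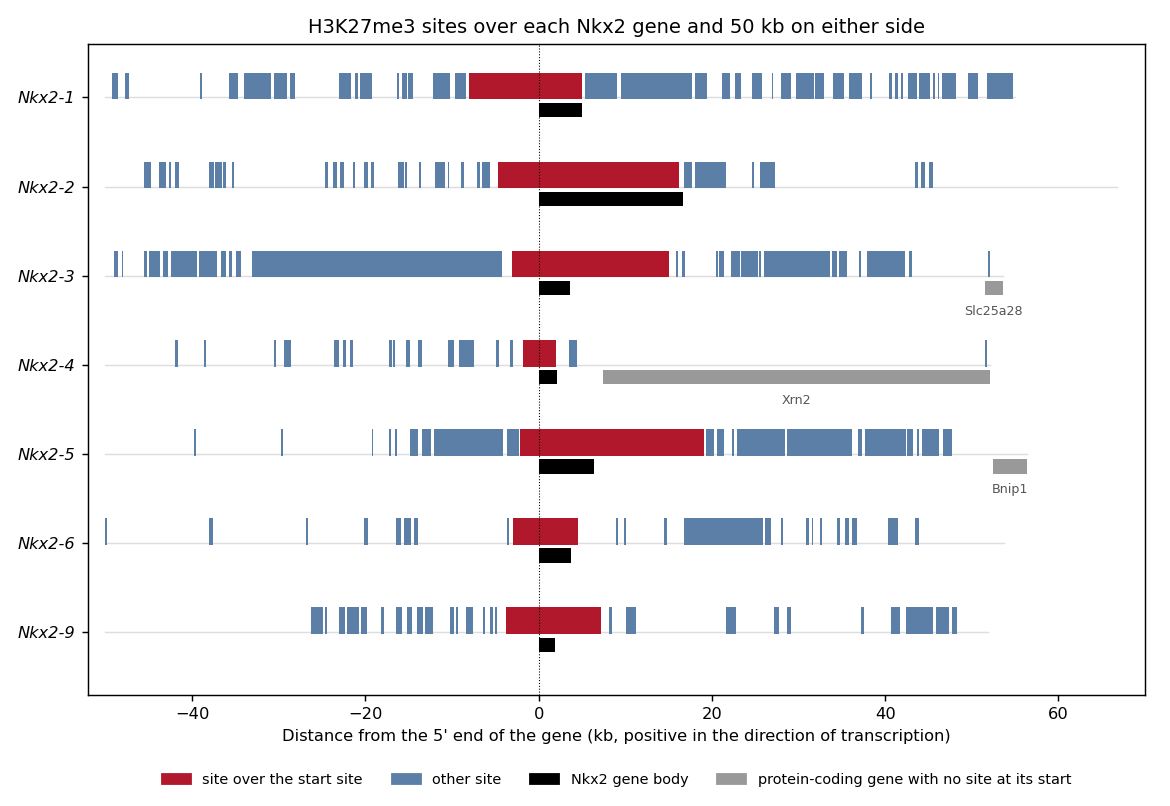
H3K27me3 sites (coloured bars) over each Nkx2 gene and 50 kb on either side, plotted against the distance from the 5′ end in kb with the direction of transcription to the right. The site over the start site (red) covers each gene (black) from end to end except at Nkx2-2 and Nkx2-4, and it is narrowest at Nkx2-4, with 3721 bp. Grey bars are nearby protein-coding genes with no site at their start sites.

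Among the members of the heart and pharynx, Nkx2-5 (ENSMUSG00000015579.5, chr17:26838664-26845009, minus strand) had the widest deposited site over a start site of the family. This site, chr17:26825969-26847147, was 21179 bp wide, began 2138 bp upstream of the 5′ end and went on for 12695 bp past the 3′ end of the gene. It held both annotated start sites of Nkx2-5, of which the second lies 3444 bp inside the gene. The site was thus placed mostly over and behind the gene rather than before it. The 50 kb downstream of Nkx2-5 was covered at 73.7% and the 50 kb upstream at 29.0%. Nkx2-5 had 4 sites of at least 5 kb in its surroundings, the most of any member.

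Nkx2-6 (ENSMUSG00000044186.10, chr14:69171802-69175518, plus strand) had a site of 7490 bp, chr14:69168823-69176312. It reached 2979 bp upstream of the 5′ end and 794 bp past the 3′ end, so that it followed the outline of the gene more closely than the site at Nkx2-5. The surroundings of Nkx2-6 were covered at 12.6% upstream and 30.8% downstream. Of its 23 sites within 50 kb, 20 were below 1 kb, where 76.7% of all sites in the list were this narrow. The widest of the 23 measured 9064 bp and began 16794 bp behind the 5′ end. It was thus wider than the site over the start site of Nkx2-6.

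Nkx2-3 (ENSMUSG00000044220.13, chr19:43612325-43615892, plus strand), the member of gut and spleen, was the most covered of the family. Its start site lay in a site of 18063 bp, chr19:43609265-43627327, that began 3060 bp upstream and ended 11435 bp past the 3′ end. A wider site of 28878 bp lay entirely upstream, between 33103 and 4226 bp before the 5′ end (chr19:43579222-43608099), and overlapped no start site of Nkx2-3. Another wide site of 7685 bp began 25963 bp behind the 5′ end. At Nkx2-3 the widest site within 50 kb was thus not the one over the start site. Upstream of Nkx2-3, 83.0% of 50 kb lay in sites, and downstream 61.3%.

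Nkx2-1 (ENSMUSG00000001496.15, chr12:56531958-56536908, minus strand), the thyroid and lung factor, had a site of 13078 bp, chr12:56531853-56544930. Most of this site lay before the gene, as it began 8022 bp upstream of the 5′ end and ended 105 bp past the 3′ end. Nkx2-1 was also the member with the largest number of sites, 40 within 50 kb, of which 19 were 1 to 5 kb wide. Its next widest site, 8165 bp wide, lay downstream. The coverage was 46.6% over 50 kb upstream and 65.4% over 50 kb downstream, and no stretch free of sites was longer than 8.10 kb.

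Nkx2-4 (ENSMUSG00000054160.2, chr2:147083316-147085445, minus strand), the member most similar to Nkx2-1 by descent, had the narrowest site over a start site. This site, chr2:147083473-147087193, was 3721 bp wide and began 1748 bp upstream of the 5′ end. It left the last 157 bp of the gene uncovered, so that 92.6% of the gene body lay in it. Nkx2-4 had no site of at least 5 kb within 50 kb and its next widest site measured 1803 bp. Downstream of Nkx2-4, only 2.13% of 50 kb was covered, and a stretch of 47.1 kb free of sites began 4417 bp behind the 5′ end. This stretch runs into Xrn2, which encodes a nuclear exoribonuclease of transcription termination and lies 5.32 kb from Nkx2-4. Xrn2 had no site at its start sites and 0.308% of its body lay in sites.

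Nkx2-2 (ENSMUSG00000027434.11, chr2:147177546-147194243, minus strand), a ventral neural and endocrine factor, is the longest gene of the family. Its site, chr2:147178031-147198982, was 20952 bp wide and began 4739 bp upstream of the 5′ end. The 4 annotated transcripts of Nkx2-2 fall into 2 non-coding ones that start at the 5′ end and 2 coding ones that start 7839 and 8142 bp further inside, and all 4 starts lay in this site. Only the last 485 bp of the gene were uncovered. Of the 30 sites around Nkx2-2, 26 were below 1 kb, against 76.7% of all sites in the list, and the next widest site measured 3521 bp. Coverage was 30.2% upstream and 15.6% downstream.

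Nkx2-9 (ENSMUSG00000058669.7, chr12:56611389-56613284, minus strand), the shortest gene of the family with 1896 bp, had a site of 10941 bp, chr12:56606069-56617009. It began 3725 bp upstream of the 5′ end and went on for 5320 bp past the 3′ end, so that the site was several times as long as the gene. Upstream and downstream coverage were close to each other, with 27.3% and 31.5%. A stretch of 23.7 kb at the far upstream end of its surroundings was free of sites.

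The members, whose start site windows all lay in sites, spread widely in their surroundings. The share of the gene body with 50 kb either side that lay in sites was 73.1% at Nkx2-3, 58.1% at Nkx2-1, 54.3% at Nkx2-5, 33.5% at Nkx2-2, 30.7% at Nkx2-9, 24.5% at Nkx2-6 and 12.4% at Nkx2-4. Over all protein-coding genes the median of this share was 3.81%, the upper quartile 14.9% and the 90th percentile 32.2%. Accordingly, Nkx2-3, Nkx2-1, Nkx2-5 and Nkx2-2 were above the 90th percentile and Nkx2-4 was below the upper quartile of all genes. The order holds for 1 list with no error, so neighbours in it, such as Nkx2-1 and Nkx2-5 or Nkx2-2 and Nkx2-9, cannot be called different. The median of the members was 33.5%, and the number of sites was between 18 and 40 with a median of 27, against a median of 7 for all genes. The 50 kb regions of the 2 members of a linked pair overlap, so their shares hold some bases in common.

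**Figure D2:**
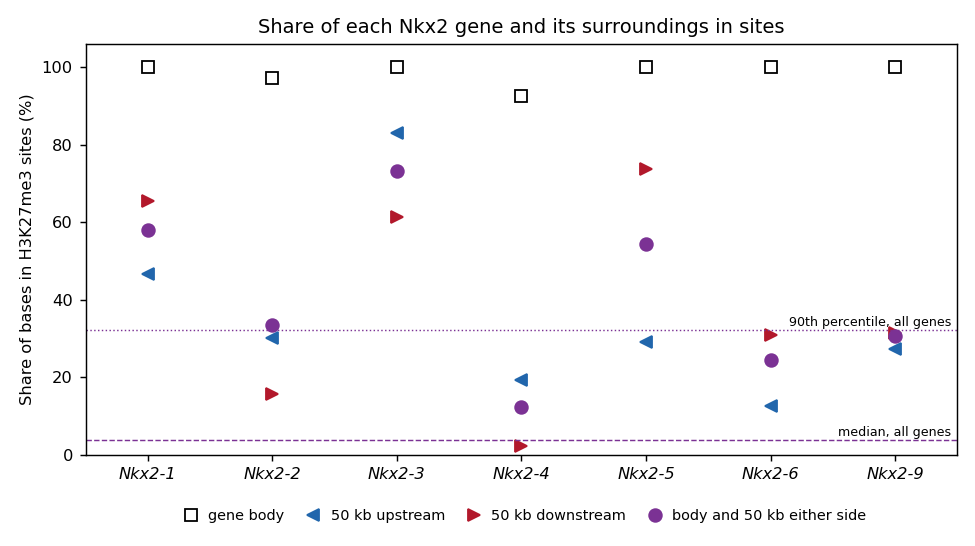
Share of bases in H3K27me3 sites (%) for each Nkx2 gene, over the gene body (squares), 50 kb upstream and downstream (triangles) and the body with 50 kb either side (circles), with the median and 90th percentile of the last measure over all protein-coding genes as lines. The bodies lie between 92.6 and 100%, while the shares with 50 kb either side spread from 12.4% to 73.1%.

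Merged over overlaps, the regions around the 7 genes made 5 stretches on 5 chromosomes with a length of 706 kb, of which 295 kb or 41.8% lay in sites. The 7 sites over the start sites together measured 95.4 kb, 32.3% of the covered length, so most of the covered bases lay in other sites. Of the 179 sites, 126 were below 1 kb (70.4%), 40 were 1 to 5 kb wide (22.3%), and 13 were at least 5 kb wide (7.26%). In the whole list the shares in these 3 classes were 76.7%, 20.0% and 3.30%. The surroundings of the Nkx2 genes thus held many narrow sites beside few wide ones, and their median width was 532 bp. The 6 sites of at least 10 kb were those over the start sites of 5 members and the upstream site of Nkx2-3.

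Neighbouring sites may be pieces of 1 domain, so sites were also joined across short gaps. With gaps below 1 kb joined, the site at Nkx2-5 grew to 62.6 kb from 16 sites, of which 90.4% was covered by the sites themselves. The site at Nkx2-1 grew to 31.7 kb from 6 sites, whereas the site at Nkx2-4 remained a single site of 3.72 kb. With gaps below 5 kb joined, the stretch at Nkx2-1 reached 107.7 kb from 50 sites and that at Nkx2-3 reached 92.2 kb from 26 sites. Both were then wider than the stretch at Nkx2-5, with 67.0 kb from 19 sites, so which member has the widest site depends on how sites are joined. The joined stretch at Nkx2-6 measured 47.6 kb from 16 sites.

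The family holds 2 linked pairs, Nkx2-1 with Nkx2-9 on chromosome 12 and Nkx2-4 with Nkx2-2 on chromosome 2. The pairs are known as duplicates of each other, with Nkx2-1 and Nkx2-4 as one pair of close relatives and Nkx2-9 and Nkx2-2 as the other. In both pairs the genes lie on the minus strand, and Nkx2-1 or Nkx2-4 lies downstream of its linked partner. In neither pair did 1 site hold the start sites of both genes, and this was also so after joining gaps below 5 kb.

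Between Nkx2-1 and Nkx2-9 lay 74.5 kb (chr12:56536909-56611388), of which 42.0% was in 21 sites. Coverage was uneven, with 58.6% of the part next to Nkx2-1 and 25.4% of the part next to Nkx2-9, when the stretch was divided in the middle. Between the 2 sites over the start sites, 61.1 kb remained, and 19 further sites of at most 3101 bp covered 29.4% of it. The stretch between Nkx2-4 and Nkx2-2 (chr2:147085446-147177545) was 92.1 kb long and was covered at 18.9% by 23 sites. Here the parts next to either gene were closer to each other, with 20.9% at Nkx2-4 and 17.0% at Nkx2-2. Between the 2 sites over the start sites were 90.8 kb, covered at 17.3%. The longest gap free of sites was 10.5 kb on chromosome 12 and 21.3 kb on chromosome 2. Among 2862 stretches of 50 to 150 kb between neighbouring protein-coding genes the median coverage was 2.08%, and 91.5% and 80.6% of them were less covered than the stretch of the pair on chromosome 12 and on chromosome 2, respectively.

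Relatives by descent were also set side by side. The site over the start site measured 13078 bp at Nkx2-1 and 3721 bp at Nkx2-4, and the share with 50 kb either side was 58.1% and 12.4%. The site measured 20952 bp at Nkx2-2 and 10941 bp at Nkx2-9, and here the shares with 50 kb either side were 33.5% and 30.7%. The longer gene had the wider site in both pairs of relatives. These are values of 1 list, and whether they differ beyond the error of site calling was not tested.

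Few other protein-coding genes lie within 50 kb of a member, and 3 of them had no site at their start sites. These are Xrn2 next to Nkx2-4, Slc25a28, a mitochondrial iron carrier 47.9 kb from Nkx2-3 with 1.88% of its body in sites, and Bnip1, which encodes a SNARE protein, 46.1 kb from Nkx2-5 with 0% of its body in sites. On the plot of the loci the sites downstream of Nkx2-3, Nkx2-4 and Nkx2-5 end before these genes or leave them nearly free.

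The coverage around the 5′ ends was averaged in 100 bins of 1 kb. Within 5 kb of the 5′ end the Nkx2 genes were covered at 85.7% on average, at 5 to 10 kb at 60.1%, at 10 to 25 kb at 46.6% and at 25 to 50 kb at 28.3%. Over all protein-coding genes the same zones were covered at 13.8%, 11.2%, 10.4% and 10.7%. The spread among the members was narrowest near the start site, between 53.7% and 100%, and at 5 to 10 kb it was between 4% and 100%. For the 7 Nkx1, Nkx3 and Nkx6 genes, relatives with roles in the nervous system, skeleton, prostate and gut, the zones were covered at 85.1%, 46.8%, 38.1% and 18.8%. Nkx2 genes and these relatives were thus nearly equal within 5 kb of the 5′ end. At 5 to 10 kb the Nkx2 genes were covered more on either side, with 56.8% against 47.1% upstream and 63.4% against 46.6% downstream. Beyond 10 kb the order depended on the side. At 25 to 50 kb downstream the Nkx2 genes were covered at 37.4% and the relatives at 4.78%, whereas at 25 to 50 kb upstream the values were 19.2% and 32.9%. At 10 to 25 kb upstream they were close, with 40.8% and 42.7%, and at 10 to 25 kb downstream they were 52.3% and 33.5%. These differences were not tested, and the ranges of the members are wide, from 0% to 80.6% at 25 to 50 kb downstream.

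**Figure D3:**
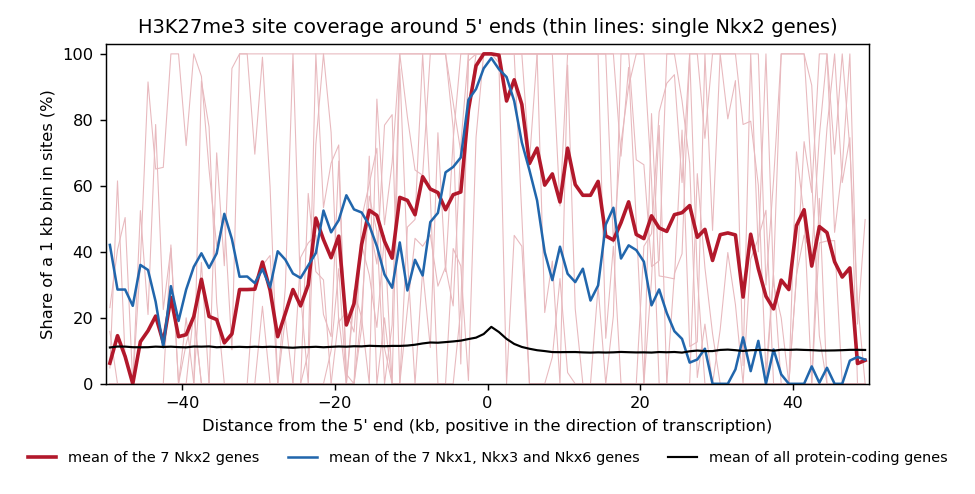
Mean share of 1 kb bins in H3K27me3 sites (%) against the distance from the 5′ end in kb, for the 7 Nkx2 genes (red, single genes as thin lines), the 7 Nkx1, Nkx3 and Nkx6 genes (blue) and all protein-coding genes (black). Both groups of NK genes have their maximum at the 5′ end, and the line of the Nkx2 genes stays above that of all genes over most of the 50 kb on either side.

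The single profiles were compared over all bins, those at the start site included. Pearson's r between the profile of a member and the mean of the other members over 100 bins was 0.52 for Nkx2-5, 0.49 for Nkx2-2, 0.45 for Nkx2-1, 0.40 for Nkx2-9, 0.36 for Nkx2-4 and for Nkx2-6, and 0.14 for Nkx2-3. Neighbouring bins belong to the same sites and are not independent, so these values are a description only. Outside the NK genes, the 5 profiles most like the mean of the members included those of Gsx2 (r = 0.76), Prdm12, Shh and Zfp423 (r = 0.74 each). Gsx2 and Prdm12 encode transcription factors of the developing brain and spinal cord or sensory neurons, Shh encodes the signal that patterns the ventral neural tube, and Zfp423 encodes a zinc finger factor of brain and fat. The sites over their start sites were between 16.3 kb at Zfp423 and 24.1 kb at Shh. The body lay wholly in sites at Gsx2 and Shh, and at 97.5% at Prdm12 and 26.5% at Zfp423.

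The base composition is a property that the choice of members did not use. In the 500 bp either side of the 5′ end, GC content was between 50.3% at Nkx2-5 and 64.7% at Nkx2-2 with a median of 57.3%, against 54.7% for all protein-coding genes. The ratio of observed to expected CpG was 0.93 at Nkx2-4, 0.67 at Nkx2-1, 0.62 at Nkx2-2, 0.62 at Nkx2-5, 0.57 at Nkx2-3, 0.53 at Nkx2-9 and 0.37 at Nkx2-6. Over all protein-coding genes, the median ratio was 0.55. The ratio of Nkx2-4 was higher than that of 94.6% of genes, and those of the other members were between the percentiles 38.4 and 61.6, near the middle of all promoters. Nkx2-4 combined the most CpG-rich promoter of the family with its narrowest site and the least covered surroundings.

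Over the whole site at the start site, the CpG ratio was higher than in flanks of the same width at 7 of 7 members, with a median of 0.43 in the site and 0.20 in the flanks. The GC content was higher as well at 7 of 7, with medians of 50.8% and 43.9%. At Nkx2-4 the ratio was 0.90 in the site and 0.20 in the flanks, and at Nkx2-9, which had the lowest ratio within a site, it was 0.33 and 0.17. The flanks were not matched to the sites for the share of genes or promoters in them. Nor were they free of the mark, since at Nkx2-3 the upstream flank lay in large part in the site of 28878 bp. The same comparison was not made for other genes, so the counts of 7 of 7 stand without a share beside them.

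**Figure D4:**
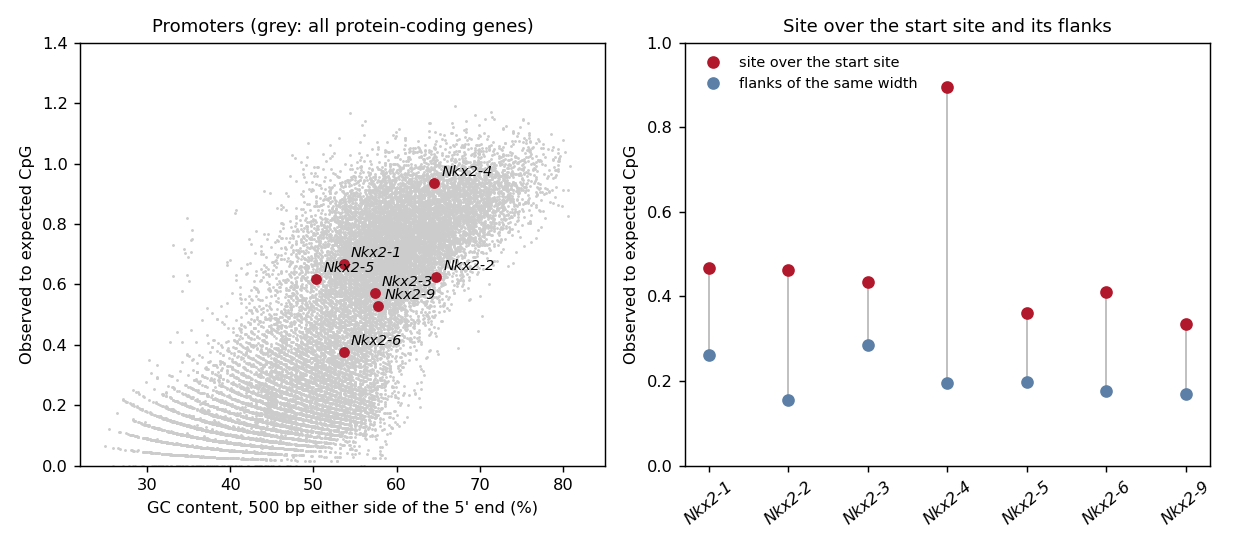
Left, GC content (%) against the observed to expected CpG ratio in 500 bp either side of the 5′ end for the Nkx2 genes (red) and all protein-coding genes (grey). Right, the CpG ratio of each site over a start site (red) and of flanks of the same width (blue), with Nkx2-4 at 0.90 against 0.20.

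In the RefSeq table, 6 of the 7 members had a promoter entry, and the entry missing was that of Nkx2-6. In the 250 bases upstream of the RefSeq start site Nkx2-4 had 33 CpG dinucleotides, Nkx2-3 had 14, Nkx2-9 had 13, Nkx2-1 had 9, and Nkx2-2 and Nkx2-5 had 8 each. The median of 32851 promoters was 6, with quartiles at 2 and 16, so Nkx2-4 alone was above the upper quartile. The RefSeq start site lay 7841 bp inside the gene at Nkx2-2 and 3444 bp inside it at Nkx2-5. At these genes the 250 bases are thus not part of the promoter whose GC content and CpG ratio are given above. The 250 bases of Nkx2-4 reach 100 bases past the 5′ end used here, and the CpG dinucleotides beyond the 12 printed above lie in or at the edge of those bases. The letters TNAAGTG, a core that NK2 proteins are known to bind, were searched on both strands of these 250 bases and found once, in Nkx2-2. They were present in 10.1% of all promoters of the table. The letters TATAAA on the strand of the gene were found in 0 of 6, against 7.59% of all promoters. The presence or absence of these letters is a description of the sequence and says nothing on the binding of a factor.

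Factors that act with the NK2 proteins in the same organs were mostly covered too. Of 30 partner genes, 26 had a site within 1 kb of a start site, 23 had one of at least 2 kb and 19 one of at least 10 kb, where the shares of all protein-coding genes were 31.5%, 16.1% and 3.82%, and their median share with 50 kb either side was 31.9%. The widest sites were found at Barx1 (59436 bp), a factor of the stomach and spleen, and in the ventral neural tube group at Pax7 (43850 bp), Olig2 (33872 bp) and Pax6 (30370 bp), which mark domains along the neural tube. Of the 8 genes of the ventral neural tube, 7 had a site of at least 10 kb. Among the heart genes 8 of 8 had a site and 5 had one of at least 10 kb, among those of pancreas and gut 7 of 7 had a site and 4 had one of at least 10 kb, and among those of thyroid and lung 4 of 6 had a site and 2 one of at least 10 kb. In the small group of spleen and pharynx, 2 of 3 had a site of at least 10 kb. Genes with no site within 1 kb of a start site included Hhex, Gata6 and Irx3, of which Irx3 had 47.7% of its body in sites and Hhex 0%. The lists were drawn up with earlier results of these data known, and Foxa2 and Isl1 stand in 2 groups each.

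Genes that NK2 factors activate in differentiated organs were listed as well. Of 17 such genes, 9 had a site at a start site and 6 had one of at least 2 kb, against 31.5% and 16.1% of all protein-coding genes. Only Myh6, the gene of a cardiac myosin heavy chain, had one of at least 10 kb (20719 bp), against 3.82% of all genes, which for 17 genes is near that share. The median width of the widest site at a start site was 446 bp and the median share with 50 kb either side was 13.1%. The genes without a site at a start site included Nppa and Nppb, which encode natriuretic peptides of the heart, Slc5a5, the iodide transporter of the thyroid, and Ins1, an insulin gene. The difference in width between these genes and the partner factors was not tested.

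The fibroblast markers had narrow sites or none at their start sites. Of 12 markers, 4 had a site within 1 kb of a start site, a share near the 31.5% of all protein-coding genes, and 0 had one of at least 2 kb, against 16.1%. The widest was at Prrx1 (534 bp). Their median share with 50 kb either side was 0.476%. Of the markers of other cell types, 3 of 4 for epithelium, 1 of 3 for endothelium and 1 of 3 for blood had a site, and the widest was 5422 bp at Kdr. The list has no expression values, so whether any of these genes, or the Nkx2 genes, were transcribed in the cells was not measured here.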

How the data were processed

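ChIP-seq of H3K27me3 was analysed from 1 deposited list of sites, that of the first experiment. Per the labels and the methods of the study, the authors used Trim Galore for trimming, BWA for alignment to mm10 (GRCm38.p6) and samtools for filters, merged replicates with Picard, normalized to the lowest coverage and called broad peaks with MACS2, named as such in the submitters' processing notes. Versions and thresholds are not given in the sources used here. The deposited values are positions in bp (start and end), and columns with values per library numbered 0. Starts were read as counted from 0, since end minus start was 200 bp at the least and exactly this at 19442 sites.

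Sites were intersected with GENCODE M21, an earlier release than that of the study, using Python 3.11.15 and numpy 2.4.6, and figures were drawn with matplotlib 3.10.9. An overlap of 1 bp counted. Windows were 1 kb either side of every start site, and surroundings 50 kb either side of the gene body. Percentiles give the percent of protein-coding genes with a lower value. Interval functions were tested on simulated data. The members and gene lists were chosen with earlier results of these data known. Genes named from a list are at most 4 with the widest sites and at most 4 with none, besides members, protein-coding genes within 50 kb and the 5 most alike profiles, which exclude genes within 200 kb of a member. Likeness of the proteins was not computed. No group comparison was made, since the list holds no values per library. Values of some of these genes are not reported here.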

Additional observations from a re-analysis of the deposited data

How the results depend on the processing

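The list holds no error, no depth and no level, so a width or a covered share cannot be given with a spread, and counts of sites depend on how sites were split. No paired analysis was possible because single libraries have no values in this list, and so none could be left out in turn. Of 51 values over the members under other settings, 46 stayed within 1.5 times the value reported and 5 did not. The median width of the site over a start site was 19972 bp after joining across gaps below 1 kb and 52029 bp after joining across gaps below 5 kb. The median share with 50 kb either side was 55.3% after the latter joining and 77.4% when only 10 kb either side was taken. The median share of the stretches between linked members rose from 30.5% to 59.6% after it. By construction, joining adds the gaps to the covered length. The number of members with a site, the number with a site of at least 2 kb and the number of linked pairs within 1 site were 7, 7 and 0 in each setting run for them. Of 84 values of single members, 69 stayed within 1.5 times and 15 did not.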

Other observations

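The wide sites of the Nkx2 genes also held the 5′ ends of several genes that do not code for proteins, which were picked out after their values were seen. At Nkx2-2, the antisense gene Nkx2-2os begins inside the site of 20952 bp and runs out of it, with 24.2% of its body in 39 sites, while 6430503K07Rik, another antisense gene, lay wholly in this site. At Nkx2-1, the antisense gene Gm26973 begins 1565 bp inside the gene and extends towards Nkx2-9, with 40.1% of its body in sites. At Nkx2-6, the antisense gene 1700092C10Rik begins 55 bp inside the gene, and 46.2% of its body was in sites. At Nkx2-3, the site of 18063 bp held the 5′ end of the lincRNA Gm20467, 1700 bp upstream of Nkx2-3, and the whole of the miRNA gene Gm22646. The list does not give a strand, so a site cannot be assigned to a gene rather than its antisense partner.

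Not all such genes near a member were covered. The lincRNA genes Gm17382 and Gm20468, which overlap on opposite strands upstream of Nkx2-5, had 4.32% and 4.60% of their bodies in sites. In contrast, Sfta3-ps, 2.53 kb downstream of Nkx2-1, had 64.1% of its body in 21 sites.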
